A study of Mus musculus with 24 samples.

Results

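Tetraspanins are small proteins that cross the cell membrane several times and gather integrins, proteases and each other into membrane platforms. Described here are 10 of their genes: Tspan8, whose protein was used to sort the cells, and Tspan1, Tspan5, Tspan6, Cd9, Cd63, Cd81, Cd82, Cd151 and Cd53. They were picked by name, through their Entrez identifiers, which makes 10 of the 27080 genes in the deposited count tables. All 10 identifiers matched.

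The cells were basal cells of the mammary gland, sorted from C57BL/6 female mice with no treatment, and the labels give neither an age nor an altered allele. The 4 sorted subpopulations were Lgr5+Tspan8hi, Lgr5+Tspan8-, Lgr5-Tspan8hi and Lgr5-Tspan8-, where Lgr5 is an R-spondin receptor that strengthens Wnt signalling. Chromatin immunoprecipitation with sequencing measured H3K4me3 and H3K27me3 with 2 libraries for each mark in each subpopulation, 16 libraries in all, and the 8 input samples were not analysed here. The series title speaks of quiescent, hormone-responsive stem cells, and the comparisons made here ask how the marks at these genes differ with Tspan8 and with Lgr5. Whether replicate libraries came from separate animals is not given in the labels, so a p-value here rests on the spread among these libraries alone, which may be technical.

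In epithelial cells tetraspanins sit beside adhesion receptors, where they affect how cells hold to laminin, migrate and shed vesicles, and basal mammary cells lie directly on a laminin-rich basement membrane. H3K4me3 is a mark of active and poised promoters, while H3K27me3 is laid down by Polycomb complexes over repressed genes. Promoters dense in CG dinucleotides tend to carry H3K4me3 by default, whereas CG-poor promoters usually carry it only where they are in use.

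To show the range of CG content and of H3K4me3 among these genes, 4 promoters are printed, as the 250 bases before the annotated start in RefSeq for GRCm38.p6, the assembly that mm10 denotes. They read 5′ to 3′ on the gene's strand, and capitals mark CG dinucleotides. They lie at chr10:115817034-115817283 (plus strand) for Tspan8, chr6:125494761-125495010 (minus) for Cd9, chr3:138741958-138742207 (plus) for Tspan5 and chr3:106790150-106790399 (minus) for Cd53.
Tspan8: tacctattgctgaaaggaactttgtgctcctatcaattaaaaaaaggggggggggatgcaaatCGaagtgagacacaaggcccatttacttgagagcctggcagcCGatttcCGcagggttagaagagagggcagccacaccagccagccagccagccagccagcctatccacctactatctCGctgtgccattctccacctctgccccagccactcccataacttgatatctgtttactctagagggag
Cd9: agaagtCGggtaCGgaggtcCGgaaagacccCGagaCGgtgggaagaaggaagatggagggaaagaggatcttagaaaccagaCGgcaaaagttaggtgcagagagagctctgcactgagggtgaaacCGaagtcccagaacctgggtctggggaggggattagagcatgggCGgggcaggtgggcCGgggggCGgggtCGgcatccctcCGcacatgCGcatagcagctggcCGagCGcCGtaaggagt
Tspan5: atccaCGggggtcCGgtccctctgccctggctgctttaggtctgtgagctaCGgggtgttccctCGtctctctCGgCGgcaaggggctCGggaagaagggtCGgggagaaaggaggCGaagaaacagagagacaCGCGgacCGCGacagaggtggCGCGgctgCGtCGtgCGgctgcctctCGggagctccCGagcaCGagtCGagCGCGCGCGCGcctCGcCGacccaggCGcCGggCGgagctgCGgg
Cd53: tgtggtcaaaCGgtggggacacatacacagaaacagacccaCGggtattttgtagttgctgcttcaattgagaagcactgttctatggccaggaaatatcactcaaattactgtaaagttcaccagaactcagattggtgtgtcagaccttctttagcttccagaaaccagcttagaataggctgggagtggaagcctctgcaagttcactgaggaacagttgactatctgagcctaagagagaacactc

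The Tspan8 promoter held 4 CG dinucleotides, fewer than the median of 6 over 32841 promoters of 27018 genes in the same table, and 37.8% of those promoters held fewer. Tspan5 had 33 CG dinucleotides, Cd9 and Cd81 had 16 each, and Cd63 had 6, at a start 13114 bp inside the outer end of its gene model that may not be the one counted. Tspan6 had 5, at a start 2779 bp inside its gene model that also may not be the one counted. Tspan1 had 3 and Cd53 had 2. Cd151 held 12 and 4 at its 2 annotated starts, and Cd82 between 3 and 14 at its 4 starts. The 3 members with at least 16 CG dinucleotides had over 100 CPM of H3K4me3 (CPM, read counts scaled to library size by the TMM method). Among members with a single annotated start, the 2 with the fewest, Tspan1 and Cd53, had the lowest levels. Levels did not follow CG content throughout, since Cd151 had 133.8 CPM, more than the 101.6 CPM of Tspan5. Cd82, with as few as 3 CG dinucleotides, had 46.9 CPM, and Cd63 had 91.8 CPM. The letters TATAAA, sought on both strands, occurred in none of the members' windows and in 12.37% of all promoters.

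Depth and cell identity were as follows. Total counts ran from 2241266 to 3260828 in Tspan8hi and from 1472251 to 4740371 in Tspan8- libraries for H3K4me3. For H3K27me3 they ran from 2639862 to 6300093 in Tspan8hi and from 4338218 to 6972189 in Tspan8- libraries. The number of independent reads that would leave as many genes without a read as seen was 17.2% to 47.6% of the total in Tspan8hi and 55.5% to 99.3% in Tspan8- libraries for H3K4me3. For H3K27me3 it was 31.1% to 64.6% in Tspan8hi and 72.0% to 79.0% in Tspan8- libraries. Replicate 1 of Lgr5-Tspan8hi was the lowest for both marks. This estimate takes every library to follow the mean profile of its mark, and duplicate reads were not counted. The labelled basal type was checked on 12 basal and myoepithelial genes, whose median H3K4me3 exceeded 91.8% of all genes, against 55.8% for 12 luminal and 22.4% for 12 immune genes. Krt5 held 96.2 to 169.4 and Krt14 94.9 to 146.6 CPM of H3K4me3 over the 8 libraries, and the luminal gene Krt8 held 95.8 to 130.8. Trp63, a basal transcription factor gene with an internal promoter, held only 0 to 2.89.

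H3K4me3 behaved as a count around a gene start, since 1671 pairs of neighbouring genes with starts under 1000 bp apart had a median count ratio of 1.01. H3K27me3 grew with gene length (Spearman's rho across genes 0.8, against 0.35 for H3K4me3), and 1152 such pairs differed by a median ratio of 4.19. Levels of different genes are therefore compared in CPM for H3K4me3 and in CPM per kb of gene for H3K27me3. Which start was counted for a gene with several is not stated in the labels or processing notes.

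Tspan8 (Entrez 216350; chromosome 10, 115816817 to 115849893, plus strand, 33.1 kb) had high H3K4me3 in every Tspan8hi library. In Lgr5+Tspan8hi cells it held 68.6 and 83.6 CPM, and in Lgr5+Tspan8- cells 30.7 and 23.0 CPM. In Lgr5-Tspan8hi cells it held 89.3 and 78.0 CPM, and in Lgr5-Tspan8- cells 24.8 and 21.1 CPM. All 4 Tspan8hi libraries lay above all 4 Tspan8- libraries, with 79.9 ± 8.79 CPM against 24.9 ± 4.13 CPM (SD, n = 4 each). Between Lgr5+ and Lgr5- cells the log2 fold change was 0.07 ± 0.18 (SE; edgeR adjusted p = 1.0).

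The fold was 3.21, a log2 fold change of 1.68 ± 0.18 (SE), with an adjusted p of 3.26e-11 in edgeR's quasi-likelihood test over 19009 genes. By p it ranked 1 of those genes. A gene passes here at an adjusted p under 0.05, which 0.0473% of the tested genes did in this comparison, and in 1.48% the Tspan8hi libraries lay wholly above. Within Lgr5+ cells the log2 fold change was 1.48 ± 0.25 (edgeR adjusted p = 0.0013; background 0.00526%), and within Lgr5- cells it was 1.89 ± 0.25 (edgeR adjusted p = 5.39e-07; background 0.0263%). The difference between those effects was -0.41 ± 0.36 with an edgeR adjusted p of 1.0, where 0.0% of genes passed. The within-Lgr5+ call rested on single libraries: without Lgr5+Tspan8hi replicate 2 it was 1.33 ± 0.31 (edgeR adjusted p = 0.217), and without Lgr5+Tspan8- replicate 2 it was 1.31 ± 0.30 (edgeR adjusted p = 0.812). In each case the library left alone is assumed to vary like the other subpopulations.

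Because the cells were sorted on Tspan8 protein, this gene is a check of the sort as much as a result. Markers of other cell types were compared between the same groups. Of 12 fibroblast genes 9 had less and 3 more H3K4me3 in Tspan8hi libraries (median log2 fold change -0.22), 4 of them at an unadjusted p under 0.05, where 5.9% of all genes had one, and 0 passed. They summed to 275.9 to 364.6 CPM in Tspan8hi and 331.1 to 433.4 CPM in Tspan8- libraries, and 1 of the 12 was at 0 in at least 1 library. Of 11 tested basal genes 8 had less and 3 more (median -0.06, 0 passed). Within Lgr5+ cells 10 of 11 had less (median -0.31), and within Lgr5- cells 7 of 11 had more (0.13), with 0 passing. Sums over all 12 were 958.9 to 1112 CPM in Tspan8hi and 1026 to 1240 CPM in Tspan8- libraries. Basal H3K27me3 within Lgr5+ cells was higher at 11 of 12 (median 0.88), 5 at an unadjusted p under 0.05, against 7.85% of all genes. None passed, and within Lgr5- cells it was higher at 3 of 12 (median -0.14). Of 11 tested luminal genes 7 had more and 4 less H3K4me3 over both Lgr5 states (median 0.10, 0 passed). Endothelial genes split 5 and 5 over both Lgr5 states. Within Lgr5+ cells 9 of 10 had more (median 0.66), and within Lgr5- cells 7 of 10 had less (-0.37), with 0 passing. The part of these markers in the Tspan8 values was not tested. H3K4me3 at Tspan8 remained measurable at 21.1 to 30.7 CPM in Tspan8- cells, and the median of all genes was 22.5 CPM. In bulk chromatin, fewer marked cells and less mark per cell cannot be told apart.

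H3K27me3 at Tspan8 ran the other way without passing the threshold. Lgr5+Tspan8hi cells had 14.6 and 10.98 CPM and Lgr5+Tspan8- cells 17.8 and 17.2 CPM. Lgr5-Tspan8hi cells had 10.1 and 14.2 CPM and Lgr5-Tspan8- cells 29.0 and 21.4 CPM. Every Tspan8hi library lay below every Tspan8- library, with the highest values in Lgr5-Tspan8- cells.

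The means were 12.5 ± 2.24 CPM in Tspan8hi and 21.4 ± 5.44 CPM in Tspan8- libraries (SD, n = 4 each). The log2 fold change of -0.72 ± 0.20 had an edgeR adjusted p of 0.104 (unadjusted 0.0013), at rank 277 of 22099 genes. In this comparison 0.335% of genes passed, 21 higher and 53 lower, and in 3.54% of genes the Tspan8hi libraries lay wholly below. The split of calls was 36 higher and 28 lower when libraries were scaled by their totals and 49 higher and 33 lower with loess offsets. With a replicate block on all 8 libraries, the log2 fold change of Tspan8 was -0.715 ± 0.195 (edgeR adjusted p = 0.0383), where 681 genes passed. Without Lgr5-Tspan8hi replicate 2 the log2 fold change was -0.87 ± 0.23 with an edgeR adjusted p of 0.0327. Within Lgr5- cells it was -1.001 ± 0.28 (edgeR adjusted p = 0.199, and 0.0496 without that same library; background 0.0724%), and within Lgr5+ cells -0.45 ± 0.28 (edgeR adjusted p = 0.754; background 0.00905%). Leaving that library out leaves Lgr5-Tspan8hi with replicate 1 alone, which had 27 reads at Tspan8 and the lowest estimated share of independent reads. Its spread is then taken from the other subpopulations. The estimated share of independent reads differed between the same groups, and its part in these values was not tested.

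**Figure D1:**
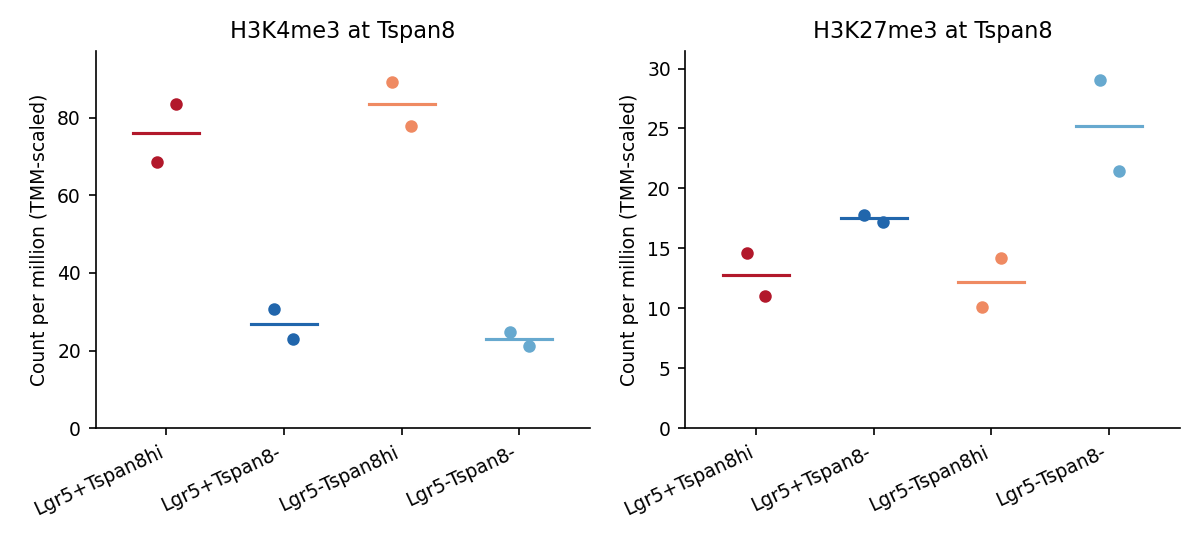
H3K4me3 (left) and H3K27me3 (right) at Tspan8 in CPM for each library of the 4 subpopulations, with points for libraries and bars for the means of 2. H3K4me3 lies between 68.6 and 89.3 CPM in Tspan8hi and between 21.1 and 30.7 CPM in Tspan8- libraries, and H3K27me3 between 10.1 and 14.6 against 17.2 and 29.0 CPM.

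The other members carried very different amounts of H3K4me3, and none of them passed a test between subpopulations. Cd9, which takes part in cell motility and in fusion of sperm and egg, had the most, with 163.6 CPM on average and 140.7 to 194.5 CPM over the 8 libraries. Cd151, a partner of the laminin-binding integrins, followed with 133.8 CPM (97.6 to 179.5), and these ranges overlapped. Their means exceeded 99.3% and 97.6% of all genes.

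Tspan5, which guides the protease ADAM10, averaged 101.6 CPM (82.96 to 116.5). Cd81, a partner of cell-surface immunoglobulin family proteins and part of the B-cell co-receptor, averaged 101.1 CPM (82.5 to 116.0). Cd63, a protein of late endosomes and exosomes, averaged 91.8 CPM (72.5 to 110.0). These 3 levels overlapped each other throughout, and their means exceeded 89.0% to 92.1% of all genes. In Tspan8hi cells Tspan8 itself, at 68.6 to 89.3 CPM, reached the lower part of the Cd63 range, while in Tspan8- cells it lay below Cd82.

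Cd82, known in human as a suppressor of metastasis, averaged 46.9 CPM with a narrow range of 38.6 to 55.1 and a coefficient of variation of 9.91% over the 8 libraries. Tspan8 varied by 57.4% on the same measure, the sparsely counted Tspan1 by 52% and Cd53 by 89%, while Tspan5, Tspan6, Cd9, Cd63, Cd81 and Cd151 varied by 11.5% to 17.9%. Tspan6, an X-linked tetraspanin gene, averaged 15.3 CPM (13.1 to 21.7), and its RefSeq promoter start lies 2779 bp inside the outer end of the gene model. Tspan1, known from secretory epithelia, averaged 5.66 CPM (2.30 to 11.4). Cd53, a gene of white blood cells, averaged 1.03 CPM on 0 to 14 reads and was too low to be tested. In the order from Cd63 down, the ranges of Cd82, Tspan6 and Tspan1 did not overlap, while those of Tspan1 and Cd53 met between 2.30 and 2.92 CPM.

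**Figure D2:**
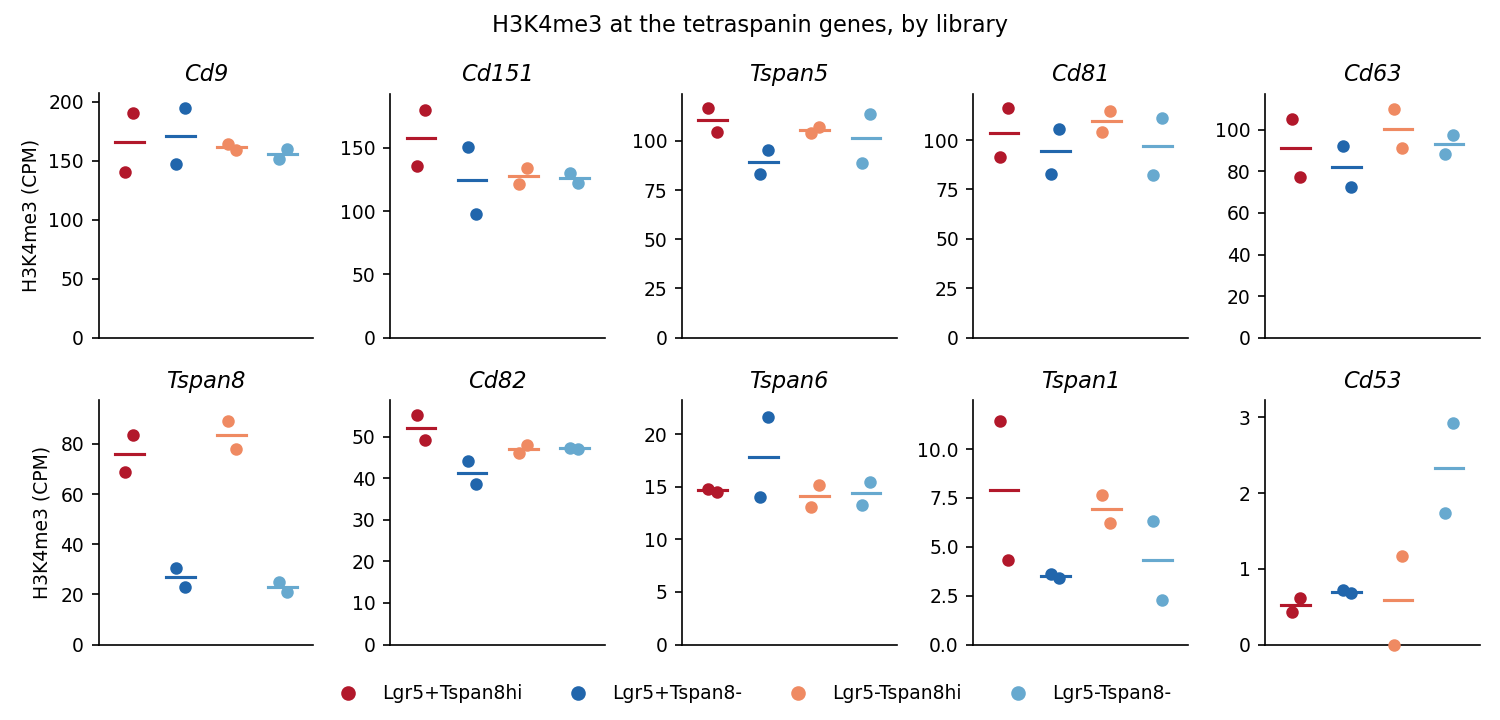
H3K4me3 in CPM at each of the 10 genes, ordered by mean, with points for the 2 libraries of each subpopulation and bars for their mean, each panel on its own axis from 0. Tspan8 separates Tspan8hi from Tspan8- libraries, and Cd9, between 140.7 and 194.5 CPM, does not.

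None of the other 8 tested members passed in the Tspan8 comparison of H3K4me3. Their log2 fold changes ran from -0.15 (Tspan6) to 0.96 (Tspan1), with edgeR adjusted p between 0.896 and 0.995, and 0 of 8 had an unadjusted p under 0.05. DESeq2 called Tspan8 and no other member. Of the 8 members other than Tspan8, 7 had values above 0, with a median of 0.16. Over all genes 9432 of 19009 were above 0, with a median of -0.002. The 8 were not tested as a set. The largest value belonged to Tspan1, which among Lgr5+ cells had 11.4 and 4.33 CPM in Tspan8hi and 3.61 and 3.39 CPM in Tspan8- libraries. Among Lgr5- cells it had 7.67 and 6.24 CPM in Tspan8hi and 6.35 and 2.30 CPM in Tspan8- libraries. Those groups overlapped, on 5 to 27 reads per library, and the log2 fold change was 0.96 ± 0.66 (edgeR adjusted p = 0.896).

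Cd151 had 142.5 ± 25.4 CPM in Tspan8hi and 125.0 ± 22.0 CPM in Tspan8- libraries, and Cd9 had 163.8 ± 20.5 and 163.4 ± 21.4 CPM (SD, n = 4 each). The log2 fold change of Cd9 was 0.01 ± 0.11, and its libraries overlapped. With Lgr5, H3K4me3 called 0 of 9 members with edgeR, 0 with DESeq2 and 0 at an unadjusted p under 0.05, where 0.0421% of genes passed. Those log2 fold changes ran from -0.16 (Cd63) to 0.16 (Tspan6). Of 12 fibroblast genes 9 had less and 3 more H3K4me3 in Lgr5+ libraries (median -0.12), and 1 passed, lower (edgeR adjusted p = 1.455e-04). The basal, luminal, immune and endothelial lists had 0 calls with Lgr5. The part of these markers in the Lgr5 values was not tested.

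H3K27me3 followed another order. Tspan6 had the most per length with 1.98 CPM per kb, above 82.2% of all genes, and then Cd53 with 1.39 CPM per kb, above 72.3%. Tspan6 is X-linked and the mice were female, and the part of the X chromosome in this level was not tested. Cd82 had 0.795, Tspan8 0.512, Tspan1 0.370, Tspan5 0.369, Cd81 0.249 and Cd9 0.213 CPM per kb, against a median of 0.601 over all genes. Cd151 with 0.125 and Cd63 with 0.0595 CPM per kb exceeded 3.8% and 1.9% of genes. They had 0 to 5 and 0 to 10 reads per library and were not tested.

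Cd53 and Cd63 thus lay on opposite sides of the median gene in both marks, with 1.03 CPM of H3K4me3 at Cd53 and 91.8 at Cd63. Ptprc, which encodes the pan-leukocyte protein CD45, had 0.721 to 11.02 CPM of H3K4me3. The 12 immune genes summed to 46.9 to 65.0 CPM of H3K4me3 in Tspan8hi and 48.7 to 70.4 CPM in Tspan8- libraries, and 7 of the 12 were at 0 in at least 1 library.

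**Figure D3:**
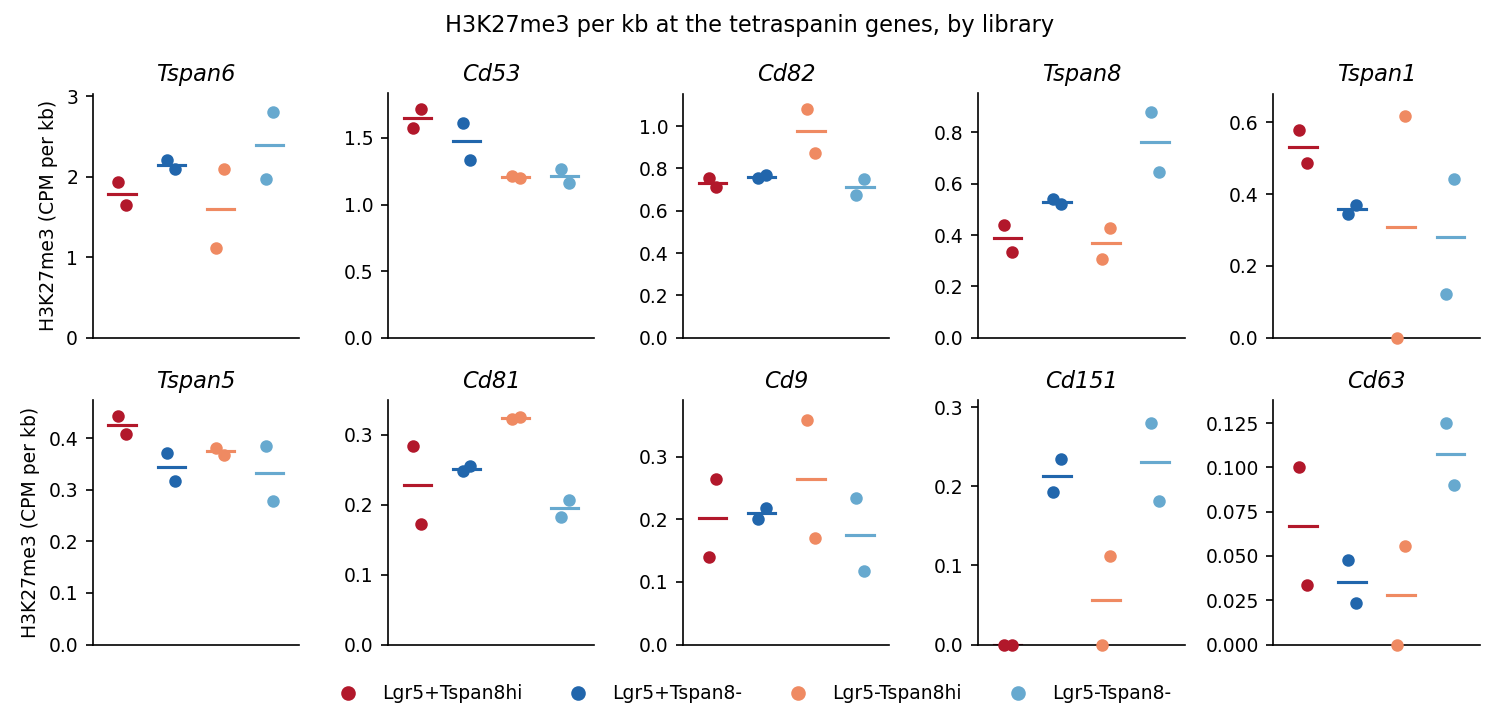
H3K27me3 in CPM per kb of gene at each of the 10 genes, ordered by mean, with points for the 2 libraries of each subpopulation and bars for their mean, each panel on its own axis from 0. Tspan6 leads with a mean of 1.98 CPM per kb, and Cd53 is higher in Lgr5+ than in Lgr5- libraries.

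With Tspan8, H3K27me3 called 0 of 8 tested members in edgeR, and 1, Tspan8, had an unadjusted p under 0.05. Over all genes 0.335% were called and 12.9% had such an unadjusted p, so 1 of 8 is near the background. DESeq2 called 0 but gave no adjusted p for Tspan8, Tspan1, Tspan6, Cd9 and Cd81. The 7 others had edgeR adjusted p between 0.413 and 0.884. Among Lgr5+ cells, Tspan6 had 19.6 and 16.8 CPM in Tspan8hi and 22.4 and 21.3 CPM in Tspan8- libraries. Among Lgr5- cells, it had 11.3 and 21.3 CPM in Tspan8hi and 20.1 and 28.5 CPM in Tspan8- libraries. Its groups overlapped, and the log2 fold change was -0.39 ± 0.20 (edgeR adjusted p = 0.413). Tspan5, at 65.0 ± 5.37 CPM in Tspan8hi and 55.0 ± 8.03 CPM in Tspan8- libraries (SD, n = 4 each), gave 0.24 ± 0.13 (edgeR adjusted p = 0.447).

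Cd82 among Lgr5+ cells had 33.0 and 31.3 CPM in Tspan8hi and 33.1 and 33.7 CPM in Tspan8- libraries. Among Lgr5- cells it had 47.3 and 38.2 CPM in Tspan8hi and 29.5 and 32.9 CPM in Tspan8- libraries. The Lgr5-Tspan8hi libraries were the highest, and the other 6 lay within 29.5 to 33.7. Within Lgr5- cells the log2 fold change was 0.43 ± 0.21 (edgeR adjusted p = 0.481), and the interaction was -0.49 ± 0.29 (edgeR adjusted p = 0.955; background 0.00905%). Cd151 had 0, 0, 0 and 3 reads in the Tspan8hi and 4, 5, 5 and 5 reads in the Tspan8- libraries, which did not overlap but lie near the limit of detection. Among the tested genes, which do not include Cd151, 3.54% had Tspan8hi libraries wholly below.

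With Lgr5, Cd53 was the only member whose H3K27me3 libraries did not overlap. Lgr5+ libraries had 49.3, 53.8, 50.5 and 41.8 CPM and Lgr5- libraries 37.9, 37.4, 39.6 and 36.4 CPM. The means were 48.8 ± 5.08 and 37.9 ± 1.36 CPM (SD, n = 4 each), with all 4 Lgr5+ libraries above. The log2 fold change of 0.37 ± 0.14 had an unadjusted p of 0.0118 and did not pass (edgeR adjusted p = 0.541, and 0.244 to 1.0 over 14 other settings). In this comparison 0.0407% of genes passed and in 2.11% the Lgr5+ libraries lay wholly above. The 8 tested members had 0 calls with edgeR and 0 with DESeq2, which gave no adjusted p for Tspan8, Tspan1, Tspan6, Cd9 and Cd81. Cd53 was the 1 of 8 with an unadjusted p under 0.05, where 7.19% of all genes had one, so this count is near the background.

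**Figure D4:**
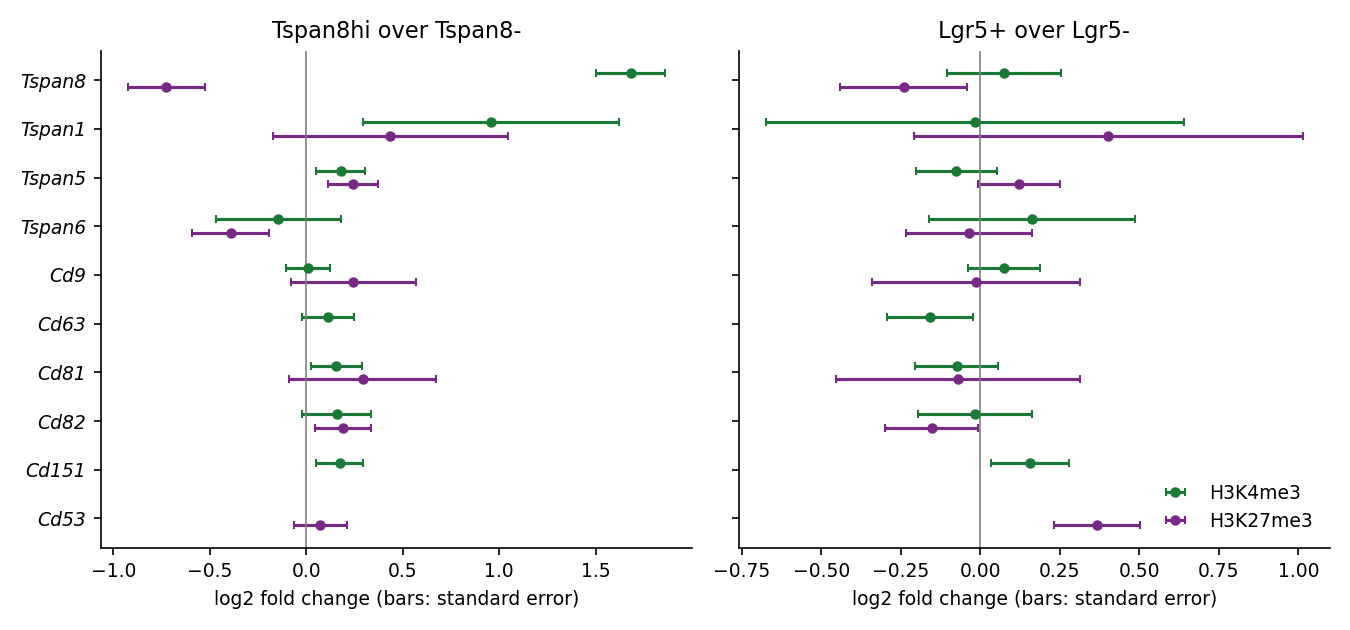
Log2 fold changes (horizontal axis, points) with standard errors (bars) for the members tested in each mark, for Tspan8hi over Tspan8- (left) and Lgr5+ over Lgr5- (right). Tspan8 stands at 1.68 for H3K4me3 and -0.72 for H3K27me3 in the left panel, and the other members lie between -0.39 and 0.96 there.

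Some members lie over other genes, so their reads cannot be assigned with certainty. The start of Cd81 is 936 bp from that of R74862, and reads behind their mean H3K4me3 counts of 272.1 and 295.6 cannot be told apart. Cd82 overlaps Gm10804, which held 11.2 H3K4me3 counts against 125.0 for Cd82. For H3K27me3 the mean counts were 78.0 at Gm10804 and 178.8 at Cd82, and 44.6 at R74862 and 19.6 at Cd81. Cd9 and Cd151 overlap long noncoding genes that were not analysed here. Tspan8, Tspan1, Tspan5, Tspan6, Cd63 and Cd53 neither overlap another annotated gene nor have a start of another gene within 2 kb.

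Set beside 21 further tetraspanin genes, the members were placed above or below the median gene in each mark. Of 31 tetraspanins, 15 lay above the median gene in H3K4me3 and not in H3K27me3 per kb, among them Cd9, Cd151, Tspan4 and Tspan8. These are means over all subpopulations, and in Lgr5-Tspan8- cells Tspan8 had 22.95 CPM of H3K4me3, close to the median of 22.5, and 0.763 CPM per kb of H3K27me3, above the median of 0.601. Another 9 lay above the median in H3K27me3 alone, among them Cd53 and the X-linked Tspan6, whose counted start is not known. Also among them were the bladder plaque genes Upk1a and Upk1b, the retinal gene Prph2 and the leukocyte gene Cd37. Both marks lay above their median at 6 genes, of which Cd82, which overlaps Gm10804, is a member, and Tspan1 was below in both. How all genes divide among these classes was not counted, so the counts show no trait particular to tetraspanins. Tspan4 with 151.9 CPM and Cd9 had the most H3K4me3 of the family, and Tspan11 with 2.49 and Tspan7 with 2.38 CPM per kb the most H3K27me3.

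**Figure D5:**
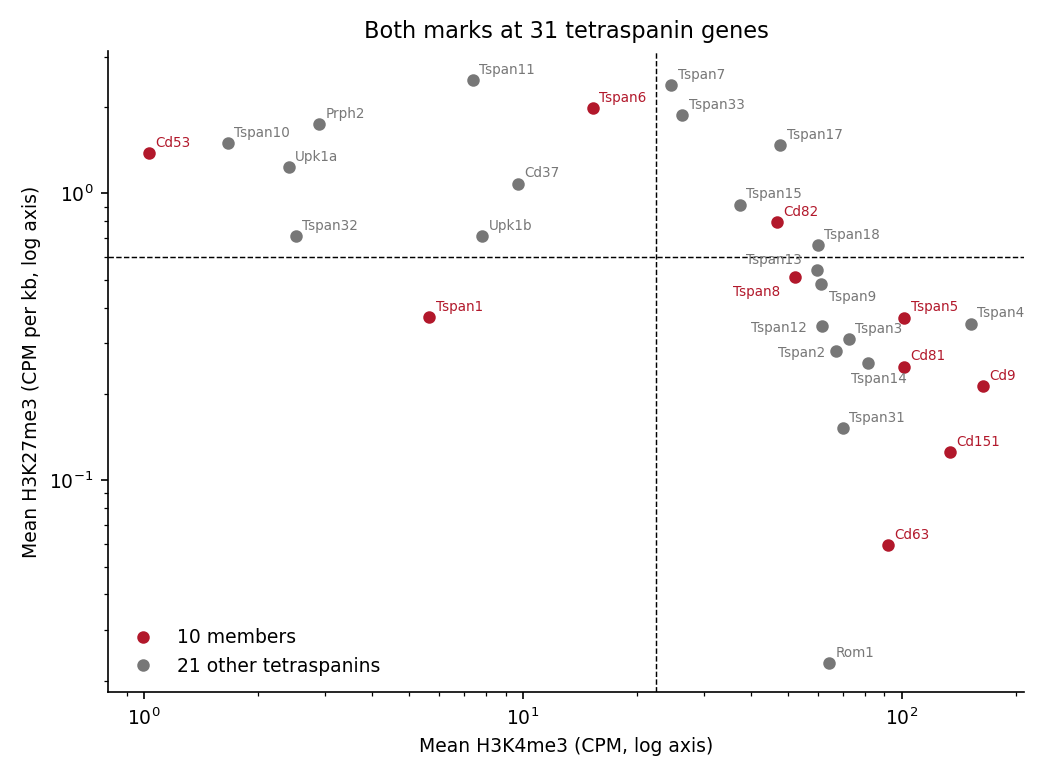
Mean H3K4me3 in CPM (horizontal, log axis) against mean H3K27me3 in CPM per kb (vertical, log axis) over the 8 libraries of each mark, for the 10 members in red and 21 other tetraspanins in grey, with dashed lines at the medians of all genes (22.5 and 0.601). Tspan8 lies right of the vertical line and just under the horizontal line.

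No further tetraspanin passed the threshold in any comparison. In the Tspan8 comparison of H3K4me3 18 of 21 were tested, 8 above and 10 below 0 with a median of -0.02, and 1 had an unadjusted p under 0.05, against 5.9% of all genes. Tspan18 had 52.1 ± 4.51 CPM in Tspan8hi and 67.8 ± 5.98 CPM in Tspan8- libraries (SD, n = 4 each), which did not overlap (-0.39 ± 0.16, edgeR adjusted p = 0.741). In 1.6% of all genes the Tspan8hi libraries lay wholly below in this way. Tspan11 gave -0.71 ± 0.52 and Tspan3 0.20 ± 0.15, with edgeR adjusted p of 0.91 and 0.913.

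For H3K27me3, 19 of the 21 were tested, 14 above and 5 below 0 with a median of 0.14, against 0.02 over all genes. Of these 8 had an unadjusted p under 0.05, where 12.9% of all genes did, and 0 passed. Tspan15 held 47.4 ± 1.78 CPM in Tspan8hi and 36.4 ± 7.34 CPM in Tspan8- libraries (SD, n = 4 each), without overlap (0.40 ± 0.14, edgeR adjusted p = 0.204), where 2.67% of all genes had Tspan8hi libraries wholly above. Tspan18, the gene with less H3K4me3 in Tspan8hi libraries, had 0.38 ± 0.14 here (edgeR adjusted p = 0.222), with 99.5 ± 22.2 against 76.2 ± 19.3 CPM. Tspan7 gave -0.29 ± 0.10 (edgeR adjusted p = 0.21), and its libraries overlapped.

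The proteins that tetraspanins bind gave no call either, over 10 genes tested in both marks. Their H3K4me3 was high at the laminin-binding integrin genes, with 148.2 CPM at Itga3, 126.0 at Itga6 and 84.4 at Itgb4, and at Adam10 with 82.5 CPM. The value furthest from 0 was that of Cldn7, a claudin found in complexes with TSPAN8 in human and rat tumour cells. Cldn7 H3K4me3 among Lgr5+ cells was 56.8 and 45.2 CPM in Tspan8hi and 33.2 and 32.5 CPM in Tspan8- libraries. Among Lgr5- cells it was 43.7 and 34.7 CPM in Tspan8hi and 31.7 and 32.8 CPM in Tspan8- libraries. All Tspan8hi libraries lay above all Tspan8- libraries, by a log2 fold change of 0.45 ± 0.20, which missed the threshold (edgeR adjusted p = 0.781). Of the 10 genes only Cldn7 had such libraries, and 1.48% of all genes had Tspan8hi libraries wholly above. Its H3K27me3 was 17.5 ± 4.70 CPM in Tspan8hi and 27.96 ± 9.46 CPM in Tspan8- libraries (SD, n = 4 each), a log2 fold change of -0.69 ± 0.20 with an edgeR adjusted p of 0.118 and overlapping libraries.

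Cldn7 had the same signs as Tspan8 in both marks, but it passed in neither and was picked as the largest of 10 values. How many of all genes share these signs was not counted, and a link with Tspan8 was not tested. Cd44, the hyaluronan receptor, and Ptgfrn gave 0.23 ± 0.13 and 0.20 ± 0.15 for H3K4me3 (edgeR adjusted p = 0.864 and 0.918). Itgb4 and Ptgfrn gave 0.46 ± 0.24 and 0.29 ± 0.15 for H3K27me3 (edgeR adjusted p = 0.436 and 0.443).

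Likeness to Tspan8 was described by Pearson's r of log2 CPM over the 8 libraries of a mark, which share the sort and the depth of each library. Predicted genes, named clones, small RNAs, olfactory and vomeronasal receptor genes and symbols starting with Rn were left out of the ranking in both marks. For H3K4me3 the genes most like it were Dennd4b (0.987), Rfxap (0.974), Tut1 (0.956), Tango6 (0.953) and Rpl41 (0.942), and those most unlike it were Filip1l (-0.972), Cyp27a1 (-0.967), Spata18 (-0.96), Asb2 (-0.955) and Mkrn3 (-0.951), among 15574 tested genes with a symbol. Dennd4b had 67.8 to 70.3 CPM in Tspan8hi and 55.8 to 60.6 CPM in Tspan8- libraries. Among the members r ran from 0.649 for Tspan1 to -0.398 for Tspan6, with 0.008 for Cd9.

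For H3K27me3 Rxfp1 (0.971), Ccnb1ip1 (0.969), Tex26 (0.966), Cga (0.961) and Nlrp10 (0.956) were most like Tspan8, and M6pr (-0.987), Fbxl4 (-0.973), Zfp862-ps (-0.971), Zbtb41 (-0.969) and Clrn3 (-0.966) most unlike it, among 17128 genes. Rxfp1, a relaxin receptor gene, had 123.2 to 149.7 CPM in Tspan8hi and 153.0 to 196.6 CPM in Tspan8- libraries. M6pr had only 2.16 to 4.51 CPM in Tspan8hi and 0.461 to 1.93 CPM in Tspan8- libraries. Among the members r ran from 0.686 for Tspan6 to -0.645 for Cd82.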

How the data were processed

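For each immunoprecipitated library the authors deposited raw read counts per Entrez gene, which the submitters' processing notes say came from featureCounts on mm10. The sources used here do not name the aligner, the tools' versions, the annotation or the counted region. Chromatin was sheared to 200 to 400 bp, per the labels' protocols. Symbols came from RefSeq tables of GRCm38.p6, which matched 25189 of 27080 identifiers. Each mark was fitted on its 8 libraries with edgeR 4.0.16 in R 4.3.3 (filterByExpr, TMM, a mean per subpopulation, robust quasi-likelihood F test, Benjamini-Hochberg adjustment over 19009 H3K4me3 and 22099 H3K27me3 genes), tested on simulated data, with a biological coefficient of variation of 16% and 16.8%. Standard errors came from the F statistic. Precision rests on library spread and, at low counts, on counting error. Replicate libraries differed by more than sampling noise.

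All members were named, with the 3 smallest p per further list and mark in the Tspan8 comparison and the 5 genes most and least like Tspan8. Others were chosen after their values were seen. Members and lists were chosen with earlier results of these data known. Other settings were RLE factors, library totals, loess offsets, DESeq2 1.42.0, no filter, a replicate block and each library left out.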

Additional observations from a re-analysis of the deposited data

Results flagged for a closer look

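For each member and mark the 4 Tspan8hi and the 4 Tspan8- libraries were searched for a library far from the rest, which made 40 groups of 4, and 2 groups had one. Chance gives such a library in about 1 group in 20 where values follow a normal distribution. That rate does not hold for groups near the limit of detection, such as that of Cd151 below.

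At Cd82, H3K27me3 in Lgr5-Tspan8- replicate 1 was 29.5 CPM, while the other 3 Tspan8- libraries lay between 32.9 and 33.7 CPM. At Cd151, H3K27me3 in Lgr5-Tspan8hi replicate 2 was 0.462 CPM, which is 3 reads, while the other 3 Tspan8hi libraries had 0 reads.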

How the results depend on the processing

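Tspan8 H3K4me3 passed over both Lgr5 states and within Lgr5- cells in all 14 other settings, with log2 fold changes of 1.60 to 1.81 and 1.75 to 1.98. Leaving out each library gave 0 to 1 members past the threshold for H3K4me3 within Lgr5+ cells, and for H3K27me3 with Tspan8 and within Lgr5- cells, where Tspan8 is the member concerned. For the remaining comparisons the count of members did not change in any of the 14 settings. No result changed sign while called.

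Counts over all genes moved more. For H3K27me3 with Tspan8 the count was 74, against 480 with DESeq2, 312 without a filter and 6 to 1090 with a library left out. With Lgr5 it was 9, against 14 with loess offsets, 69 with DESeq2, 42 without a filter and 2 to 180 with a library left out. The H3K27me3 interaction had 2, against 6 with DESeq2, 15 without a filter and 0 to 110 with a library left out. Within Lgr5+ cells H3K27me3 had 2, against 7 with library totals, 11 with loess offsets, 40 with DESeq2, 42 without a filter and 0 to 88 with a library left out. Within Lgr5- cells H3K27me3 had 16, against 146 with DESeq2, 84 without a filter and 6 to 541 with a library left out. For H3K4me3 with Lgr5 the 8 calls were 5 with DESeq2, and within Lgr5- cells the 5 calls were 8 without a filter. With a library left out, H3K4me3 counts ran from 1 to 64 with Tspan8, 1 to 10 with Lgr5, 0 to 7 for the interaction, 0 to 6 within Lgr5+ and 1 to 104 within Lgr5- cells. The cause of these moves was not tested.

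Replicate numbers paired libraries weakly, with correlations of their deviations from -0.03 to 0.14 for H3K4me3 and -0.01 to 0.12 for H3K27me3 over 6 pairs, so the pairing was not used. With the replicate block H3K27me3 gave 681 genes and 1 member with Tspan8 (Tspan8, log2 fold change -0.71 with an edgeR adjusted p of 0.0383), 80 genes with Lgr5, 13 for the interaction, 168 within Lgr5+ and 239 within Lgr5- cells, and H3K4me3 gave 10 within Lgr5- cells. Low counts at the gene left Cd53 untested for H3K4me3 (mean 3.2 reads) and Cd151 and Cd63 untested for H3K27me3 (means 2.8 and 5.5 reads). Tspan1 had 0 H3K27me3 reads in Lgr5-Tspan8hi replicate 1, and its log2 fold change with Tspan8 ran from -2.78 to 1.06 over the settings.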
